A study of Mus musculus with 6 samples.

Results

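Distal regions with a Maz motif match were followed in open chromatin of mouse nephron progenitors of the E14.5 embryo and of the newborn on the day of birth (P0). A region was included if it was not annotated as a promoter, if its list of motif matches held a name starting with Maz, and if that list held no name starting with Fox. There were 2899 such regions among 43523 distinct accessible regions, or 6.66% of all regions and 9.85% of the 29426 distal ones. No measured count entered this choice. The name stands for a match to a motif and not for Maz protein on the DNA, which was not measured.

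Both stages were CD1 litters, for which the labels name no genetic change and no treatment other than age, and each library came from the pooled kidneys of a litter, up to 24 of them. Progenitors were taken from the pool with magnetic beads that carry antibodies to Itga8, a surface integrin, and 50000 cells went into each ATAC-seq library. In this assay the Tn5 transposase cuts accessible DNA, so a region's count follows how open it is. Each stage had 3 libraries.

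Maz, the Myc-associated zinc finger protein, is a transcription factor that is present in most cell types and binds runs of G interrupted by a single other base. Such G-rich sites resemble those of the Sp and Klf families and are frequent at promoters. Nephron progenitors are self-renewing cells under the kidney surface that are used up around birth, when the last nephrons form, and distal regions include the enhancers that set when and where genes are used.

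The sequences under the matches show which DNA the Maz name stands for. Sequence was at hand for 172 matched sites in 68 of the 2899 regions, namely where a RefSeq start window (GRCm38.p6) covered the site. These regions are therefore distal by the table's annotation but lie at the start of a RefSeq gene or transcript. Here and in the base counts below each match counts as a site, so matches that overlap are counted separately. The table used an 11-base and a 22-base motif, and the runs below are written 5′ to 3′ on the strand of the match, with the matched site in capitals.
Maz 11-base, A at the sixth base, chr9:41890681-41890691 (mm10, plus strand): tagcagcttGGGGGAGGGGGgggaaagct
Maz 11-base, C at the sixth base, chr6:3183050-3183060 (mm10, plus strand): aaataggctGAGGGCGGGGCttggtgcgc
Maz 11-base, C at the sixth base, chr7:98816036-98816046 (mm10, minus strand): cctgtgaggCGGGGCGGGGCctgtggggc
Maz 22-base, chr5:112394897-112394918 (mm10, plus strand): gcggCGGGGAGGGGGCGGCGGGGCGGggcg
Maz 22-base, chr14:7658650-7658671 (mm10, minus strand): cgcgGGGGGCGGGGGGGGGGGGGTGGcgaa

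Among the 71 sites of the 11-base motif with sequence, counted from 1 at the 5′ end of the site, positions 4, 5, 7 and 8 were G in all 71. Position 6 was C in 50.7% and A in 47.9%, and position 11 was C in 45.1% and G in 39.4%. The words CGGGGCGGGGC and GGGGGCGGGGC occurred 6 times each, and AGGGGAGGGGG and GTGGGAGGGGG 5 times each. In the 101 sites of the 22-base motif G was the commonest base at every position except 6, from 48.5% at position 1 to 90.1% at position 7. Position 6 was A in 51.5%. In promoters the 2893 sequenced sites of the 11-base motif had C in 53.8% and A in 41.6% at position 6, and C in 55% and G in 30.3% at position 11. The difference between the sets was not tested. Within the RefSeq windows, both sets had mostly an A or a C between runs of G. Both were chosen by matches to the same motifs, with no score under 12. The constant G positions and this likeness were therefore set at least in part by the choice. Maz sites of the distal regions outside these windows were not compared.

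The chr9 run lies in a region (chr9:41889845-41891606) that overlaps element 734 of VISTA, a catalogue of fragments tested for enhancer activity in transgenic mouse embryos, and an enhancer of FANTOM, a catalogue of enhancers called from the transcription at them. Its level was 13.6, 16.5 and 15.3 CPM at E14.5 (replicates 1, 2 and 3) and 20.8, 21.5 and 24.2 CPM at P0, where CPM is the count divided by the TMM-scaled size of its library and multiplied up to a common size. All values are given in this order of replicates. All P0 libraries were above all E14.5 libraries, but the log2 fold change of 0.55 had an adjusted p of 0.127 by edgeR's quasi-likelihood test with Benjamini-Hochberg adjustment. The chr7 run lies in a region between Thap12 and Wnt11, 17723 bp from the span of Wnt11, a Wnt ligand of the ureteric bud tips, and overlaps VISTA element 1016. That region stood at 38.2, 31.1 and 38.5 CPM at E14.5 and at 29.8, 22.9 and 29.5 CPM at P0, with a log2 fold change of -0.39 and an adjusted p of 0.309 by the same test. Its groups did not overlap either, and the difference did not pass. None of the 5 regions whose sites are printed passed the threshold of 0.05.

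Most of the 2899 regions carried a single Maz site. In total there were 8327 matches, 2255 to the 11-base motif and 6072 to the 22-base motif, and matches that shared bases merged into 3768 separate sites. A single site was present in 2415 regions and 484 had 2 or more. At most 90 matches, in 21 sites, lay in 1 region (chr10:112819356-112825052). Match scores of the best site ran from 12 to 25.4, and no score under 12 was listed. The best site lay in the central 50% of its region in 1956 regions (67.5%), where even placement would give 50%, at a median of 259.5 bp from the centre.

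Other factors were often named in the same regions. Sall names, of spalt zinc finger factors that include the progenitor regulator Sall1, were listed in 1375 of the regions (47.4%), against 6.42% of the 19544 distal regions with neither a Maz nor a Fox name. E2f names, of cell cycle factors, were listed in 768 (26.5%) against 3.42%. Of the 3027 Sall matches in the Maz regions, 84.7% shared at least 1 base with a Maz match, and of 1938 E2f matches 82.2% did. For factors with other motifs the share was 12.5% of Sox, 22.1% of Smad, 1.59% of Meis and 1.54% of Jun or Bach matches. How many bases were shared was not measured. Six2, the defining factor of nephron progenitors, was named in 91 of the Maz regions (3.14%) and in 2.97% of the distal regions with neither name.

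**Figure D1:**
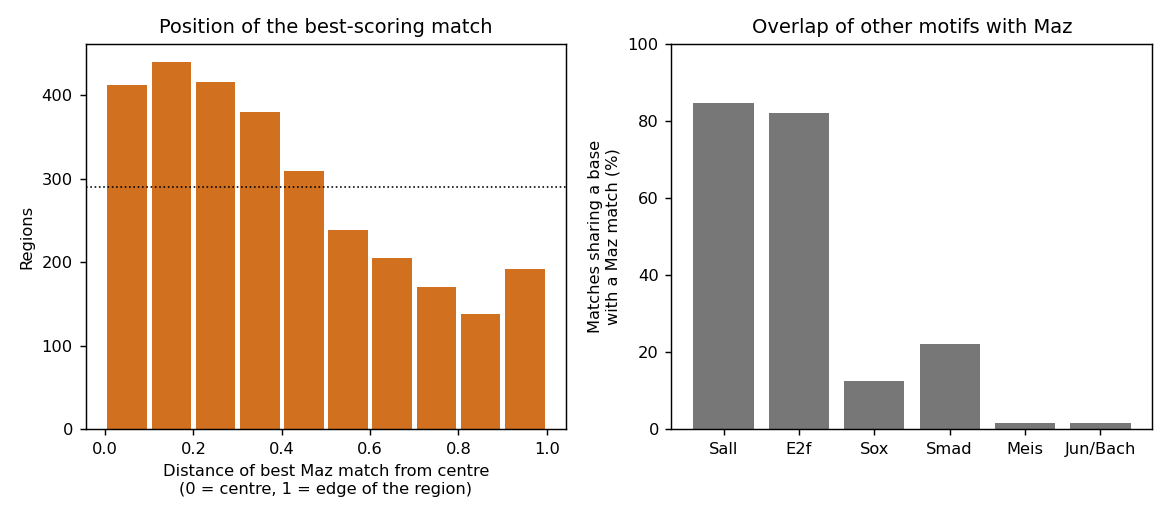
The left panel counts the 2899 distal Maz regions by the distance of their best-scoring Maz match from the region's centre, from 0 at the centre to 1 at the edge, and the dotted line is even placement. The right panel gives the percentage of other factors' motif matches that share at least 1 base with a Maz match. Counts fall from 412 in the central bin to 138 and 192 in the outer bins, and the overlap is 84.7% for Sall and 82.2% for E2f.

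By the table's annotation 307 of the regions overlapped an exon (10.6%), 979 lay in an intron (33.8%) and 1613 between genes (55.6%). They were 427 to 6120 bp long with a median of 1645 bp, against 1384 bp for distal regions with neither name, and their median level was 13.5 CPM against 10.9 CPM. A Maz name was more frequent in longer regions, from 7.82% of the shortest to 20.1% of the longest length class of distal regions (5 classes of all regions). CPM is not divided by region length. From the shortest to the longest class the median levels were 7.36, 10.3, 13.1, 15.9 and 20.6 CPM in Maz regions. In regions with neither name they were 6.92, 10.0, 12.6, 14.8 and 18.6 CPM. FANTOM enhancers overlapped 528 of the Maz regions (18.2%), against 7.38% of the distal regions with neither name and 8.16% of those with a Fox name. From the shortest to the longest length class the FANTOM share ran 9.71%, 16.6%, 20.1%, 23.2% and 20.1% in Maz regions and 5.29%, 7.76%, 7.77%, 8.67% and 9.45% in regions with neither name. VISTA elements overlapped 51 of the Maz regions (1.76%) and 0.747% of those with neither name. By length class, in the same order, the VISTA share was 0.381%, 0.365%, 2.31%, 2.16% and 3.24% in Maz regions. In regions with neither name it was 0.408%, 0.585%, 1.03%, 1.18% and 0.895%. These shares are descriptions and were not tested.

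The 6 libraries held 6492996 to 12292629 counts in regions. Promoters of progenitor markers were open at both stages: 11 of the 16 marker genes had a region listed as a promoter within 1 kb of their span, and these summed to 332 to 344 CPM per E14.5 library and 306 to 385 CPM per P0 library. The markers without such a region were Hoxa11, Hoxc11, Hoxd11, Meox1 and Pax2. Promoters of stromal markers (5 of 10 genes) summed to 118 to 155 CPM at E14.5 and 131 to 157 CPM at P0, and those of endothelial markers (2 of 8 genes) to 46.5 to 53.2 and 43.4 to 54.5 CPM. Ureteric markers (5 of 8 genes) gave 143 to 174 and 122 to 156 CPM and podocyte markers (4 of 6 genes) 105 to 112 and 81.6 to 103 CPM, while 0 of 6 immune markers had a promoter region. Promoters of differentiation genes (10 of 18 genes) summed to 399 to 421 CPM at E14.5 and 303 to 466 CPM at P0. No promoter on these lists passed the threshold. Of the 9 promoter regions of developmental timing genes, 0 were higher and 2 lower at P0. The part of other cell types in the results below was not tested. In bulk libraries fewer cells of a type and less accessibility per cell cannot be told apart.

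The stage comparison asked which regions differed between progenitors of the fetal and the newborn kidney. Of the 2899 Maz regions, all of which were tested, 149 (5.14%) passed an adjusted p of 0.05 by edgeR's quasi-likelihood test, 89 higher and 60 lower at P0. Over all regions 4.73% passed, with 1.79% higher and 2.94% lower at P0, so the total share in Maz regions was close to the background. In distal regions with neither name 5.98% passed, with 2.53% (495) higher and 3.45% (674) lower. In distal regions with a Fox name 8.89% passed, with 2% (140) higher and 6.89% (481) lower.

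Of the changed Maz regions 59.7% were higher at P0, against 42.3% of changed regions with neither name and 22.5% of those with a Fox name. The share was above that of regions with neither name in each of the 5 length classes, from 50% to 72.7% against 36.7% to 46.1%. From the shortest to the longest class these Maz shares rest on only 32, 42, 22, 34 and 19 changed regions. The difference in direction between the classes was not tested, since regions of a library are not replicates. Among the risers 54 rose at least 2-fold and among the fallers 45 fell at least 2-fold, with median log2 fold changes of 1.04 and -1.14. Among the changed regions 2 pairs overlapped, which left 147 when each pair was counted once.

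**Figure D2:**
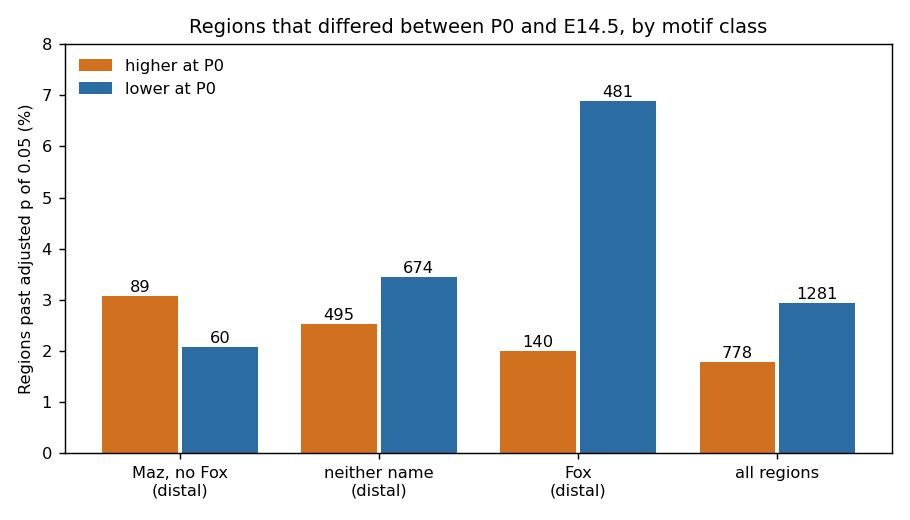
Bars give the percentage of regions in each motif class that were higher (orange) or lower (blue) at P0 at an adjusted p of 0.05, with the number of regions above each bar. In Maz regions 89 were higher and 60 lower, while in Fox regions 140 were higher and 481 lower.

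The majority of rises depended on the scaling and on single libraries. With TMM factors computed on distal regions alone, 62 Maz regions were higher and 80 lower, a share of 43.7% higher, and with scaling to total counts 100 were higher and 48 lower, or 67.6%. Distal scaling shifted the median over all regions from 0.01 to -0.09 on the log2 scale, and the median over the Maz regions from 0.12 to 0.01. Without E14.5 replicate 3 only 4 Maz regions were higher and 8 lower, and leaving out P0 replicate 1 gave 6 and 10. Without E14.5 replicate 1 there were 33 and 32, and without E14.5 replicate 2 there were 149 and 64. In each of the 15 refits the share higher at P0 among changed Maz regions stayed above that of distal regions with neither name and of those with a Fox name. Under distal scaling these shares were 43.7%, 29% and 13.6%, and without E14.5 replicate 3 they were 33.3%, 23.2% and 2.56%. The refits reuse the same libraries and are not independent, and the one without a filter gave the same counts as the main fit.

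**Figure D3:**
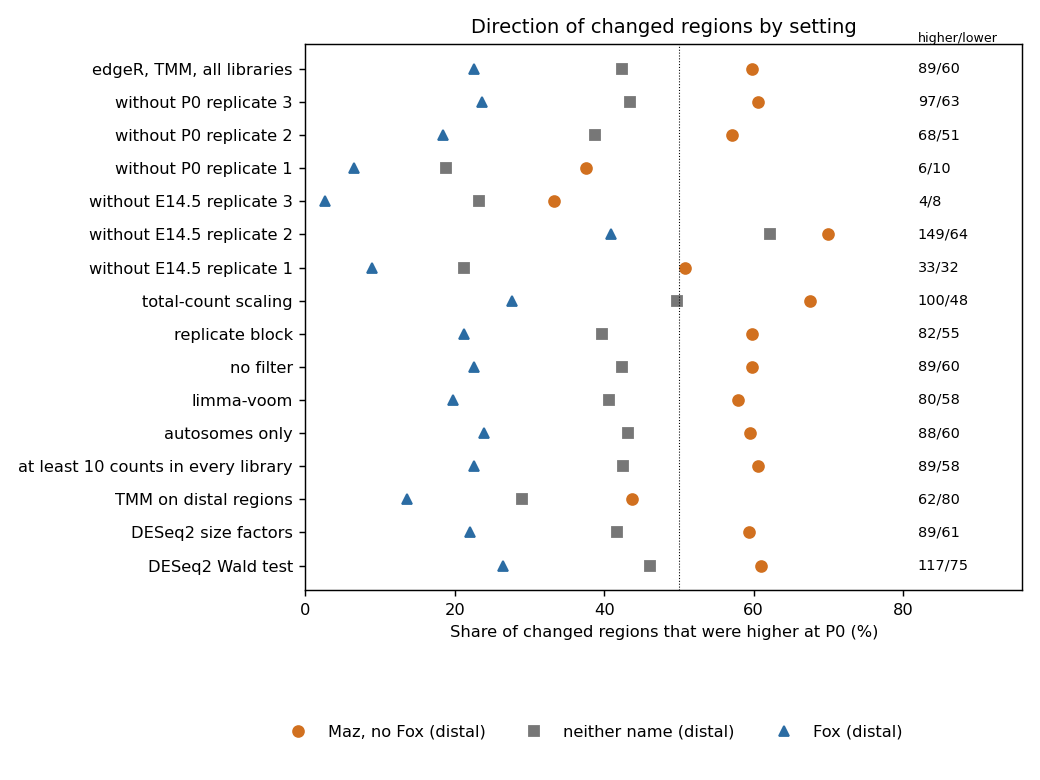
Each row is a fit of the whole table, and the points give the share of changed regions that were higher at P0 for distal regions with a Maz, neither or a Fox name. The column at the right gives the numbers of Maz regions higher and lower. The Maz share crosses 50% with the scaling and with the library left out, and it lies to the right of the other classes in every row.

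Most Maz regions were not told apart between the stages. At an unadjusted p of 0.05, 621 of the 2899 passed, and over all regions 18.7% did. The libraries of the stages did not overlap in 790 Maz regions (27.3%), against 24.2% of all regions, 27% of distal regions with neither name and 30.4% of those with a Fox name. The median log2 fold change was 0.12 in Maz regions, 0.12 in distal regions with neither name, 0.04 in those with a Fox name and -0.10 in promoters. Without P0 replicate 2 the medians of Maz regions and of distal regions with neither name were 0.05 and 0.02, and with P0 replicate 3 left out they were 0.14 and 0.17, so their order turned with the library.

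The summed counts of all Maz regions gave 1 value per library. Their share of a library's counts was 4.37%, 4.87% and 4.57% at E14.5 and 5.07%, 5.27% and 4.94% at P0. All P0 libraries lay above all E14.5 libraries, with means of 4.60% ± 0.249 and 5.09% ± 0.167 (SD, n = 3) and an exact two-sided permutation p of 0.1, the smallest that 3 against 3 libraries allow. As a share of distal counts alone, however, the means were 11.4% ± 0.285 and 11.7% ± 0.389 (SD, n = 3, exact permutation p = 0.5).

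The log2 ratio of the summed counts to those of distal regions with neither name was -2.44, -2.49 and -2.42 at E14.5 and -2.46, -2.50 and -2.38 at P0. These groups overlapped, with a difference of 0.0085 and an exact permutation p of 1. Leaving out each library in turn moved this difference between -0.0249 and 0.0344. The log2 ratio to distal Fox regions was -1.14, -1.25 and -1.18 at E14.5 and -1.10, -1.14 and -1.06 at P0. Here every P0 library was above every E14.5 library, by 0.09 on average (exact permutation p = 0.1). The log2 ratio of Fox regions to regions with neither name differed by -0.08 on average, P0 minus E14.5 (exact permutation p = 0.1, the smallest possible).

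**Figure D4:**
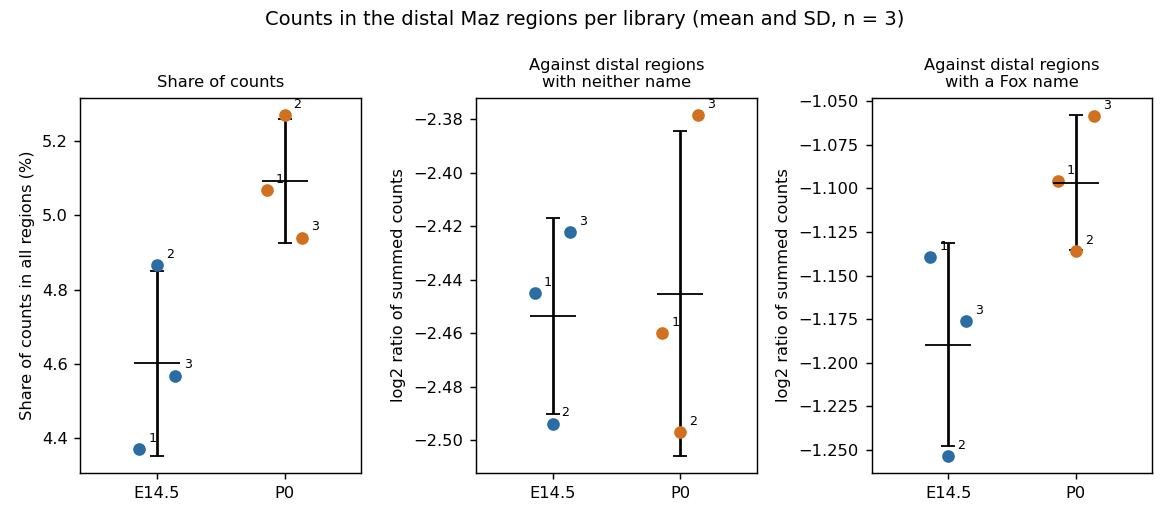
Points are libraries, numbered by replicate, with the mean and SD of 3 libraries per stage in black, and the axes do not start at 0. The panels give the share of all counts in distal Maz regions and the log2 ratio of their counts to 2 other distal classes. The stages separate in the share of counts and in the ratio to Fox regions and overlap in the ratio to regions with neither name.

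The changed regions were also counted by the sites and the other motif names they held, beside 4.73% changed over all regions and 5.98% over distal regions with neither name. Of the 2415 regions with 1 site 85 were higher and 54 lower (5.76%), of the 329 with 2 sites 3 and 5, and of the 155 with 3 or more sites 1 and 1. In that last group 15 passed an unadjusted p of 0.05, and DESeq2 and limma-voom also called 1 higher and 1 lower. Regions with only the 11-base motif changed in 47 of 954 cases (31 higher, 16 lower), with only the 22-base motif in 67 of 1143 (37 and 30), and with both in 35 of 802 (21 and 14). Regions that also listed an E2f name changed in 25 of 768 cases (3.26%, 17 higher and 8 lower), and those without one in 124 of 2131 (5.82%, 72 and 52). With a Sall name 71 of 1375 changed (41 higher, 30 lower) and without one 78 of 1524 (48 and 30). With a Sox name 8 were higher and 8 lower of 447, with a Smad name 15 and 6 of 387, with a Meis name 2 and 6 of 175, with a name of the AP-1 family (Jun or Bach) 3 and 6 of 152, with Six2 2 and 2 of 91 and with a Pax name 4 and 0 of 118. The differences between these subgroups were not tested.

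Counts for regions in the enhancer catalogues are small. Of the 528 regions at a FANTOM enhancer 8 were higher and 5 lower (2.46%), and of the other 2371 regions 81 were higher and 55 lower. Of the 51 regions at a VISTA element 0 passed in edgeR, 3 had an unadjusted p under 0.05, and DESeq2 and limma-voom also called 0. Over all regions 4.73% passed and 18.7% had an unadjusted p under 0.05. With 51 regions a count of 0 is not told apart from 4.73%. The 3 of 51 were a lower share than 18.7%, and neither difference was tested. An intronic region of Igf1r, the receptor of insulin-like growth factors, is an example (chr7:68127261-68130909). It stood at 36.1, 26.6 and 35.0 CPM at E14.5 and at 25.4, 31.0 and 28.1 CPM at P0. The groups overlapped.

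The largest rises lay mostly between genes, and the nearest genes had varied roles. The 10 largest rises ran from 1.37 to 1.81 on the log2 scale. In all 149 changed Maz regions the libraries of the stages did not overlap. The largest rises and falls were also chosen on that condition, so their separation adds nothing to the test. The region with the largest rise (chr9:25379518-25379951) lay 70947 bp from Septin7, a cytoskeletal GTPase, and went from 1.42, 2.36 and 1.28 CPM at E14.5 to 6.25, 5.90 and 6.00 CPM at P0. All P0 libraries were well above all E14.5 libraries, at a low level in both. Its log2 fold change was 1.81 ± 0.37 (SE) with an adjusted p of 0.0125, which was 0.0908 without E14.5 replicate 3, 0.0746 without P0 replicate 1 and 0.0551 without E14.5 replicate 1.

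A region 3594 bp from Col15a1, a collagen of basement membrane zones, rose by 1.73 ± 0.35 (SE, log2) with an adjusted p of 0.012 (chr4:47203259-47204061). It went from 1.90, 2.54 and 1.52 CPM to 6.77, 5.6 and 7.58 CPM, with no overlap, and its adjusted p was 0.0893 without E14.5 replicate 3 and 0.0705 when P0 replicate 1 was left out. The table placed it in the intron of a gene for which it gave no name.

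A region near Pou3f3 rose in each of the 15 refits. Pou3f3, also called Brn1, is a POU factor needed for the middle parts of the nephron, and the region (chr1:42718280-42719252) lay 18070 bp from it, inside a gene that the table did not name. Its level was 6.88, 5.34 and 6.07 CPM at E14.5 and 19.1, 16.2 and 14.1 CPM at P0, so the lowest P0 library stood above the highest E14.5 library. The log2 fold change was 1.43 ± 0.24 (SE) with an adjusted p of 0.00442, and the largest adjusted p over the alternatives was 0.0453. It held 1 Maz match and no other named motif.

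Among the other rises, a region 73709 bp from Zfpm2, a cofactor of GATA factors also known as Fog2, went from 9.02, 8.23 and 6.07 CPM to 21.8, 25.4 and 15.6 CPM (chr15:40579820-40581333). The groups were apart, with a log2 fold change of 1.42 and an adjusted p of 0.00572, or 0.0541 without E14.5 replicate 3. An intronic region of Cers6, a ceramide synthase, rose by 1.48 (chr2:69076858-69078119), with an adjusted p of 0.0137 that became 0.0949 without E14.5 replicate 3 and 0.12 when P0 replicate 1 was left out. A region 6412 bp from Septin5, another septin, rose by 1.61 (chr16:18636350-18637228, adjusted p = 0.00865, 0.0696 without E14.5 replicate 3 and 0.0648 when P0 replicate 1 was left out). The remaining rises lay nearest to Ccser2 (1.6), Nrsn1 (1.55), Thbs1, a matrix glycoprotein (1.39), and Prr16 (1.37). All 4 missed the threshold when E14.5 replicate 3 was left out, at 0.0536, 0.0685, 0.23 and 0.053. Without P0 replicate 1 the regions nearest Ccser2 and Thbs1 had 0.0619 and 0.184. The region nearest Thbs1 also had 0.172 when E14.5 replicate 1 was left out and 0.088 when P0 replicate 2 was.

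**Figure D5:**
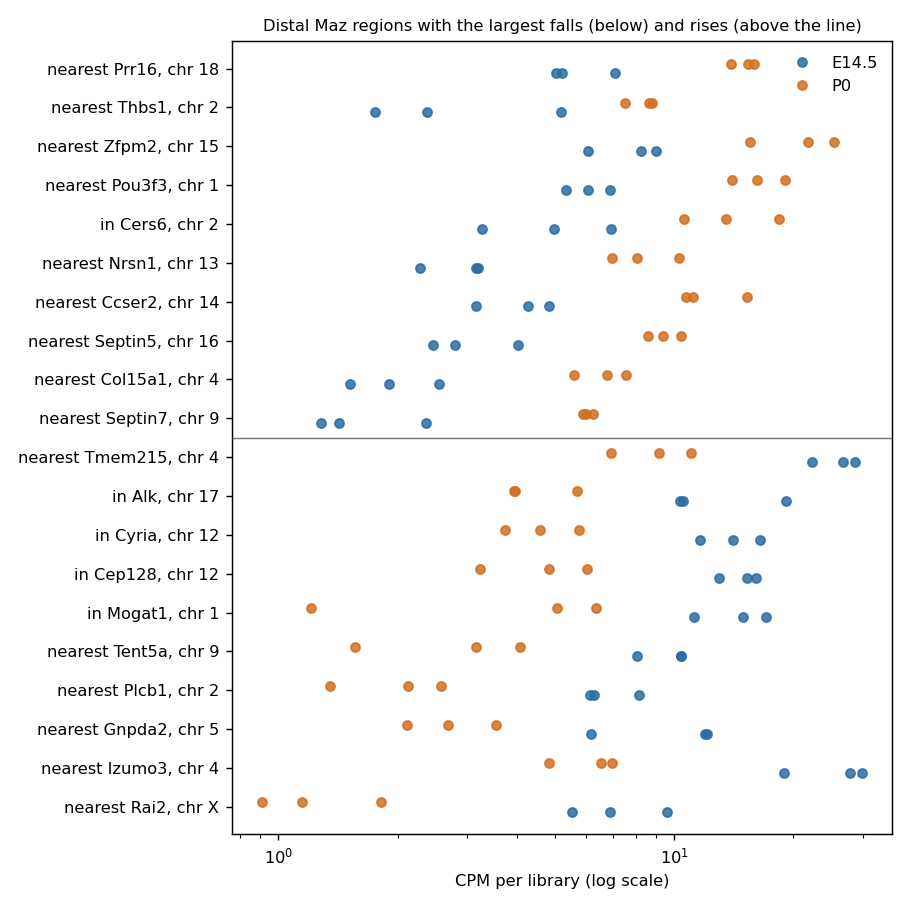
Points are the CPM of each library on a log scale for the 10 largest falls (lower part) and the 10 largest rises (upper part) among distal Maz regions, labelled by the gene they lie in or nearest to by RefSeq spans. By the rule of choice the stages do not overlap in any row, and levels run from 0.908 CPM, near Rai2 at P0, to 30.0 CPM near Izumo3 at E14.5.

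The falls were larger than the rises at the top of the list, from -1.54 to -2.44 on the log2 scale. The region with the largest fall (chrX:161556983-161557612) lay 159424 bp from Rai2, a gene named for its induction by retinoic acid. It went from 6.88, 5.52 and 9.58 CPM at E14.5 to 1.15, 0.908 and 1.82 CPM at P0, with every P0 library far below every E14.5 library. The log2 fold change was -2.44 ± 0.39 (SE) with an adjusted p of 0.0037 and at most 0.0431 over the refits that tested it. The fit on autosomes and the one that asked for at least 10 counts in every library did not hold this region.

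The next fall and the smallest of the 10 were at regions of similar E14.5 level. A region between Elavl2 and Izumo3, a gene of sperm (chr4:92095234-92096636), stood at 19.0, 30.0 and 27.8 CPM at E14.5 and at 6.98, 4.84 and 6.55 CPM at P0. The groups were far apart: the log2 fold change was -2.05 ± 0.24 (SE) and the adjusted p 0.00109, at most 0.0172 over the alternatives. A region 37977 bp from Tmem215 went from 22.3, 26.8 and 28.7 CPM to 9.16, 11 and 6.95 CPM (chr4:40433042-40434203), again with no overlap and with an adjusted p of 0.00252, at most 0.0289. Both regions had a single Maz site and a Sall name.

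Of the falls inside genes, an intronic region of Cep128, which encodes a centriole protein, fell by 1.66 on the log2 scale (chr12:91028752-91029825, adjusted p = 0.00441, at most 0.0428). An intronic region of Cyria, which encodes a binding partner of the GTPase Rac, fell by 1.59 (chr12:12299067-12300204, adjusted p = 0.00449, at most 0.0496). An intronic region of Alk, a receptor tyrosine kinase, went from 10.6, 10.3 and 19.2 CPM to 3.96, 3.93 and 5.68 CPM (chr17:72356305-72357495). E14.5 replicate 3 was the high one, and the adjusted p of 0.0118 was 0.117 without it and 0.0683 when P0 replicate 1 was left out.

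A region that the table placed between genes, but that lies in the RefSeq span of Mogat1, an acyltransferase of fat synthesis, held 19 Maz matches in 5 sites (chr1:78573445-78574745). It went from 14.9, 11.2 and 17.0 CPM to 6.35, 1.21 and 5.05 CPM, with P0 replicate 2 the lowest. Its fall of 1.72 on the log2 scale had an adjusted p of 0.021, which was 0.14 without E14.5 replicate 3 and 0.0662 without E14.5 replicate 1. A region between the phospholipase genes Plcb1 and Plcb4 held 15 matches in 2 sites (chr2:135550386-135551075). The annotation placed it in an intron of 9630028H03Rik. It fell by 1.77 (adjusted p = 0.012, 0.0969 without E14.5 replicate 3 and 0.0788 when P0 replicate 1 was left out). The last falls lay nearest to Gnpda2, an enzyme of amino sugar breakdown (-1.85), and Tent5a, a poly(A) polymerase (-1.73). Their adjusted p-values without E14.5 replicate 3 were 0.0692 and 0.0822, and that of the region nearest Tent5a was 0.067 without P0 replicate 1.

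Of the Maz regions at listed kidney genes 2 changed, 1 in each direction. Within the body or 10 kb of the 102 genes on lists of progenitor, differentiation, timing and cell type genes and of factors with G-rich motifs, there were 20 Maz regions, of which 2 (10%) passed, against 4.73% over all regions. Both calls were lost when E14.5 replicate 3 or P0 replicate 1 was left out. The faller lay in an intron of Itga8, the integrin by which the cells were selected at both stages (chr2:12221390-12222681). It went from 27.0, 24.8 and 36.6 CPM at E14.5 to 7.50, 11.2 and 16.5 CPM at P0, so that the highest P0 library was below the lowest E14.5 library. Its log2 fold change was -1.31 ± 0.27 (SE), with an adjusted p of 0.012, which was 0.0994 without E14.5 replicate 3 and 0.0742 when P0 replicate 1 was left out.

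The riser lay 2308 bp from Pax8, a paired-box factor of the early nephron epithelium (chr2:24416364-24418243), and overlapped a FANTOM enhancer. It stood at 13.0, 11.6 and 13.0 CPM at E14.5 and at 22.9, 22.2 and 28.7 CPM at P0. The groups were well apart. The log2 fold change was 0.98 ± 0.20 (SE) and the adjusted p 0.0126, which was 0.0738 without E14.5 replicate 3 and 0.0609 when P0 replicate 1 was left out. A second Maz region, in an intron of Pax8 (chr2:24427750-24429503), ran from 12.8 to 16 CPM at E14.5 and from 16.7 to 19.4 CPM at P0. Its groups did not overlap, and its adjusted p was 0.413.

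By list, the Maz regions within 10 kb were 2 at progenitor genes (0 higher, 1 lower), 6 at differentiation genes (1 higher, 0 lower) and 6 at genes of developmental timing (0 and 0). Lists of factors with G-rich motifs and of stromal, endothelial and immune markers had 1 region each and podocyte markers 2, with 0 past the threshold, and ureteric markers had 0. Their median log2 fold change over the 20 regions was -0.13, against 0.01 over all regions. Within 10 kb of the same genes lay 171 regions of any kind, of which 2 were higher and 4 lower. With a limit of 50 kb there were 38 Maz regions, of which 2 rose and 1 fell, the region near Pou3f3 being the addition.

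Other regions at listed genes did not pass. A region at Six2, the factor that maintains nephron progenitors (chr17:85664284-85665799), had 7, 8.23 and 8.64 CPM at E14.5 and 6.66, 9.53 and 9.39 CPM at P0. The groups overlapped. A region in the RefSeq span of Lin28b, an RNA-binding factor of developmental timing, which the table placed between genes (chr10:45485387-45487161), had 21.0, 28.7 and 25.6 CPM and then 19.1, 16.0 and 25.6 CPM, again with overlap and an adjusted p of 0.497. An intronic region of Igf2bp3, another RNA-binding protein of fetal tissue (chr6:49164484-49165659), had 4.98, 6.31 and 4.55 CPM and then 11.9, 11.8 and 6.95 CPM. Its groups did not overlap, and its log2 fold change of 0.93 had an adjusted p of 0.0929. P0 replicate 3 was its low P0 library, and without it the adjusted p was 0.0329.

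The most open of the Maz regions did not pass. The region with the highest mean (chr15:75085507-75087040), between Ly6c1 and Ly6c2, stood at 697, 216 and 598 CPM at E14.5 and at 447, 927 and 342 CPM at P0. Its libraries varied widely within each stage, E14.5 replicate 2 being the lowest and P0 replicate 2 the highest. Ly6c1 and Ly6c2 are closely similar genes, and how reads that match more than 1 copy were counted is not given in the sources used here. The next, at chr6:3200763-3201659, had 218, 99.8 and 181 CPM and then 189, 189 and 128 CPM, and a region at Msantd4 (chr9:4375832-4376991) 170, 166 and 167 CPM and then 172, 109 and 157 CPM. In all 3 the groups overlapped. The remaining 2, at chr5:15460906-15465287 and between Slc2a3, a glucose transporter, and Foxj2 at chr6:122810475-122812184, had adjusted p-values of 0.644 and 0.738.

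The nearest promoters of changed Maz regions passed about as often as promoters in all. The 149 changed regions had 142 different nearest promoters at a median of 84531 bp, of which 0 were higher and 1 was lower at P0, while over all promoters 0.851% passed. Over all 2899 regions there were 2293 nearest promoters at a median of 62408 bp, 13 higher and 16 lower.

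The authors' deposited table classed 135 of the 2899 Maz regions as opening and 51 as closing at P0, and over all regions 1243 and 1081. The rule behind these classes is not given in the sources used here and was not an adjusted p of 0.05, since in the authors' deposited table only 45 Maz regions, and 607 of all regions, had an adjusted p under 0.05. Of those 135, 86 were among the 89 called higher here, and of those 51, 46 were among the 60 called lower.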

How the data were processed

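ATAC-seq was measured in 6 libraries, each from a pool of kidneys of a litter, so p-values measure the spread between such pools. Counts per region and library were deposited by the authors as whole numbers in a single table. The build is mm10 per the submitters' processing notes. The aligner, the peak caller, the counting rule, the shift of reads for Tn5, the removal of duplicates and the motif set are not given in the sources used here. The table also held the authors' log2 fold change and their adjusted p-value, from a model not given in the sources used here. These served only for the comparison with the authors' opening and closing classes and for counting regions with their adjusted p under 0.05. Region lengths in bp were taken from the deposited table.

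Of 45489 rows 43523 were distinct regions, each counted once. All were tested together with edgeR 4.0.16 in R 4.3.3 (TMM scaling, filterByExpr, quasi-likelihood test, stage as the only term), and p-values were adjusted by Benjamini-Hochberg over all regions at 0.05. CPM used TMM-scaled library sizes. Values per library were compared with exact two-sided permutation tests (scipy 1.17.1). Intervals cover counting error only. On simulated counts for 43522 regions with 200 changed 2-fold the fit recovered 51.5% and called 6 unchanged ones. Libraries of a stage differed by more than sampling noise (chi-square over its degrees of freedom, 5.33 to 17.7).

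Motif positions were read so that identical words had a single score, which held for 147 of 147 repeated words of the 11-base motif. Sequences are RefSeq's. Gene spans and distances are from RefSeq GRCm38.p6, by protein-coding gene, and all 102 listed genes matched. Named regions were the 10 largest rises and falls past the threshold with stages that do not overlap, those past it within 10 kb of a listed gene, and the 5 with the highest mean CPM. Other named regions (at VISTA elements, printed sites, Igf1r, Six2, Lin28b, Igf2bp3 and the second Pax8 region) were chosen after their values were seen. The regions and gene lists were chosen with earlier results of these data known.

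Alternatives were other scalings, filters, DESeq2 1.42.0, limma-voom 3.58.1, a replicate block, leaving out each library, autosomes, other thresholds and other membership rules. The comparison of counts with Fox regions was added after seeing the data.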

Additional observations from a re-analysis of the deposited data

How the results depend on the processing

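The number of changed Maz regions, 149, ran from 12 to 213 when each library was left out in turn, with 4 to 149 higher, 8 to 64 lower and 33.3% to 69.95% higher at P0. The lowest counts came from leaving out E14.5 replicate 3 or P0 replicate 1. The share higher at P0 was 43.7% with TMM on distal regions, where the median log2 fold change was 0.0125, and 67.6% with scaling to total counts. It was 50% in regions with at least 2 Maz matches, of which 64 changed, 32 higher and 32 lower. At an adjusted p of 0.01 there were 27 changed regions, 14 higher and 13 lower, and at 0.1 there were 263, of which 174 were higher. With Fox names kept in, 100 were lower. The 2 changed regions at listed genes ran from 0 to 3 with a library left out and were 0 at 0.01.

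The difference in the log2 ratio to distal regions with neither name, 0.0085, was -0.0068 with Fox names kept in and -0.0249 to 0.0344 with a library left out, below 0 when E14.5 replicate 2 or P0 replicate 3 was left out. The cause of these changes was not tested. The share of all counts was higher at P0 by 0.377 to 0.624 percentage points with a library left out. Of the recomputed summary values, 6 reversed, 27 moved and 110 did neither. A count moved if it changed by over 1.5 times, the share higher if it left its 95% binomial interval, and the median if it changed by more than the spread between libraries. The 110 include the 62 higher and 80 lower under TMM on distal regions, where falls outnumbered rises.

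Replicate numbers did not pair the libraries: the correlations of same-numbered deviations were 0.0666, -0.14 and 0.0767. With the replicate block 82 Maz regions were higher and 55 lower, the median log2 fold change was 0.11, and the exact sign-flip p was 0.25 for the share of counts and 1 for the ratio.

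Of the 22 named regions past the threshold, 16 lost their call without E14.5 replicate 3, and 11 did without P0 replicate 1, and 6 passed in every refit that tested them (20 of the 22 were tested with at least 10 counts in every library and 21 with autosomes only). With the self-test's recovery of 51.5% of 2-fold changes, a region that did not pass is not shown to be unchanged.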

Other observations

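The table also gave columns that link regions to genes as enhancers. They held an entry for 1261 of the 2899 Maz regions (43.5%), for 43.7% of distal regions with neither name and for 43.9% of promoters. Of the 1245 Maz regions whose entry named a gene that could be placed, only 8 (0.643%) listed any gene on the same chromosome. The columns were therefore not used.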
